A study of Mus musculus with 6 samples.

Results

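The neutrophil granule, calprotectin and formyl peptide genes described here are 7 of the 750 endogenous genes of a NanoString nCounter table, taken by symbol: S100a8, Fpr2, Anxa1, Trem1, Ltf, Camp and Elane. nCounter counts single RNA molecules with barcoded probes. Total RNA came from 6 tumors of the mouse liver cancer line BNL-MEA. Before implantation the cells had received either a PD-L1 plasmid or an empty one, and stable clones of both kinds were selected with G418. PD-L1 is the ligand that inhibits T cells through PD-1. The cells were placed beneath the liver capsule, in the left lobe, of BALB/c mice, all male and 6 to 7 weeks old, and the titles put 3 tumors in each group. Because each plasmid has its own clones, clone and plasmid cannot be told apart. The description of the empty-plasmid tumors also speaks of clones that express PD-L1, so the groups are named by their labels only, as PD-L1-labelled and empty-labelled. The labels do not tell whether a group's 3 tumors grew in separate mice, and p-values therefore cover the spread between these samples alone, which may be technical.

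Neutrophils store antimicrobial proteins in granules that are filled in the bone marrow. Elane, for neutrophil elastase, is transcribed at the promyelocyte stage, and Ltf, for lactoferrin, and Camp, for the cathelicidin CRAMP, at a later precursor stage, so mature neutrophils in tissue carry the proteins with little of these transcripts. S100A8 pairs with S100A9 to form calprotectin, a calcium-binding protein of the neutrophil and monocyte cytosol that signals to other cells after release. FPR2 is a chemoattractant receptor of neutrophils, monocytes and macrophages. Its ligands include formyl peptides of bacteria and mitochondria, CRAMP and annexin A1, the product of Anxa1, which damps inflammation and which epithelial and tumor cells also make. TREM1 is a receptor of neutrophils and monocytes that amplifies inflammatory signals through the adaptor DAP12.

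Of the 7 genes, 4 were above background and 3 were not. S100a8, Fpr2 and Anxa1 each stood higher in all 3 PD-L1-labelled tumors than in all 3 empty-labelled tumors. Their group means differed by 1.67, 1.37 and 1.12 on the log2 scale, which is 3.18-fold, 2.58-fold and 2.18-fold. Trem1 did not separate the groups. Ltf, Camp and Elane stayed under the background limit in every sample. None of the 4 tested members passed the test across all genes, in which 0 of 541 genes (0.0%) had an adjusted p under 0.05 (limma, Benjamini-Hochberg). The groups did not overlap, with the PD-L1-labelled group higher, in 46 of the 541 tested genes (8.5%), against 3 of the 4 tested members. The members were chosen with earlier results of these data known, so that share is no test of them. An unadjusted p under 0.05 was found for 39 genes that were higher (7.21%) and 53 that were lower (9.8%) in the PD-L1-labelled group, and the groups did not overlap for 53 lower genes (9.8%).

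The sequences upstream of the 3 genes whose groups did not overlap are shown because these genes stood higher in the same tumors. They are the 250 bases before the RefSeq start on GRCm38.p6, on the gene's own strand. Capitals mark a TATA box (TATAAA, or TTTATA on the other strand) and the core that PU.1 and other ETS factors of myeloid cells bind (GAGGAA, or TTCCTC on the other strand). S100a8 lies on the plus strand at chr3:90668821-90669070, Fpr2 on the plus strand at chr17:17887574-17887823 and Anxa1 on the minus strand at chr19:20390672-20390921.
S100a8: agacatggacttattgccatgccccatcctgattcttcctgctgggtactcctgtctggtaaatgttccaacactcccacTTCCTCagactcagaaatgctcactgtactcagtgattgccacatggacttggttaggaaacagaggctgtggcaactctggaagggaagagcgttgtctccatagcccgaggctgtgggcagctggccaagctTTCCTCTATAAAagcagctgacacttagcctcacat
Fpr2: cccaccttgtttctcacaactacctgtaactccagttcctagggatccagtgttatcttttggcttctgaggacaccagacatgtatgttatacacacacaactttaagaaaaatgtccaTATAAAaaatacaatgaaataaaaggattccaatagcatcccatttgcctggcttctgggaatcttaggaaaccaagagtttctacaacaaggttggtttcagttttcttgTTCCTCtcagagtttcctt
Anxa1: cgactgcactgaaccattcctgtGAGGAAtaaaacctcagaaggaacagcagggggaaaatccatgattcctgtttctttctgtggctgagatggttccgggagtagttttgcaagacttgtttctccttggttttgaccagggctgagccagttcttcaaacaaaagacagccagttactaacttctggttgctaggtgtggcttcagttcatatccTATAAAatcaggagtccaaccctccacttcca

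Near the start, S100a8 has TATAAA beginning 30 bases upstream and Anxa1 has it 32 bases upstream, while the match of Fpr2 begins 130 bases upstream. The ETS core matched 2 times in S100a8, beginning 170 and 36 bases upstream, where the second match touches the TATA box. It matched 1 time in Fpr2, 19 bases upstream, and 1 time in Anxa1, 227 bases upstream. The ETS core is not particular to these genes among the members. It also matched in Trem1, Ltf and Elane, beginning 162, 157 and 85 bases upstream, and not in Camp. Among 32851 RefSeq windows of the same length, 12.4% held a TATA box match and 23.3% an ETS core match on either strand. The core of the C/EBP site (GCAAT, or ATTGC) was in 23.1% of windows. It was in the windows of S100a8, with 2 matches, and of Ltf, Camp and Elane, and in none of those of Fpr2, Anxa1 and Trem1. A match is a description of letters, and the motifs were chosen after the sequences were seen.

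**Figure D1:**
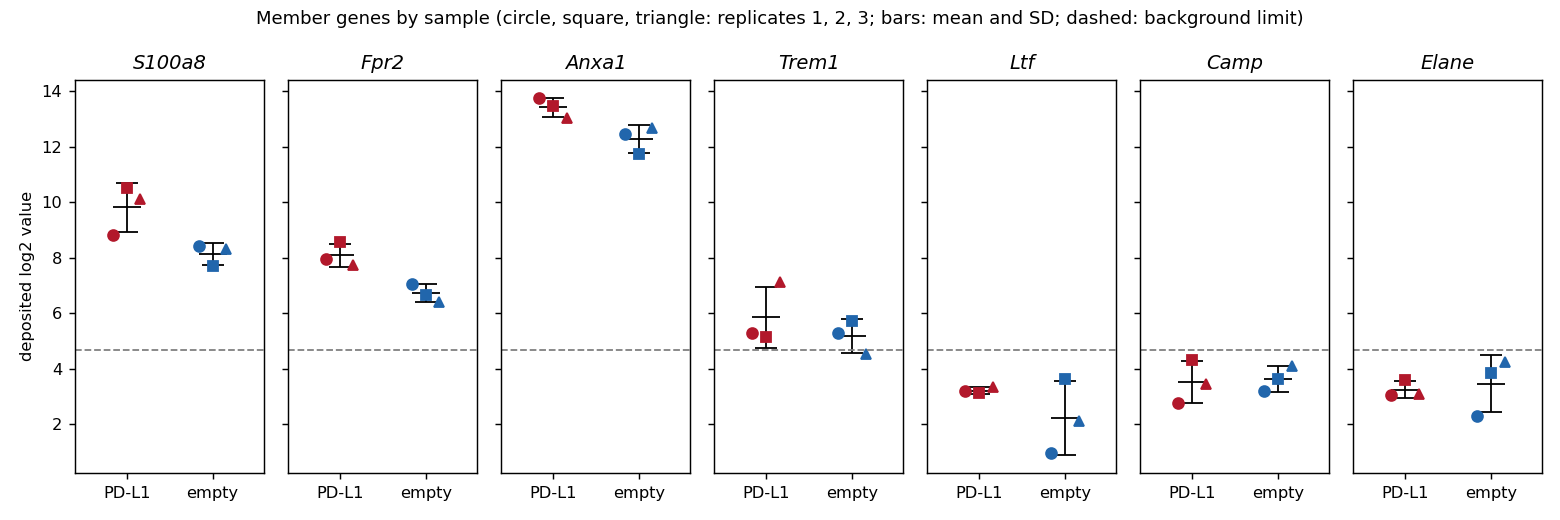
Deposited log2 values (y axis) of the 7 members in each sample (red, PD-L1-labelled; blue, empty-labelled), with the mean and SD of each group (n = 3) and the background limit of 4.66 as a dashed line. S100a8, Fpr2 and Anxa1 do not overlap between the groups, 5 of 6 Trem1 values lie above the limit, and all values of Ltf, Camp and Elane lie under it. Heights are not comparable between genes, since each is read by its own probe.

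The plot of member values by sample shows the levels that follow, which are the deposited log2 values. S100a8, the calprotectin subunit, stood at 8.81, 10.51 and 10.13 in PD-L1-labelled tumors 1, 2 and 3. It stood at 8.43, 7.70 and 8.31 in empty-labelled tumors 1, 2 and 3. The groups did not overlap, but PD-L1-labelled tumor 1 was only 0.39 above the highest empty-labelled tumor, while the other two stood well above it. The means were 9.82 ± 0.89 and 8.15 ± 0.39 (SD, n = 3 each). They differed by 1.67 ± 0.48 (SE; 95% interval 0.51 to 2.83; adjusted p = 0.251, limma). The two-sided exact permutation p was 0.1, which is the smallest that 3 against 3 samples allow. The difference ranked 15th from the highest of 541. Without PD-L1-labelled tumor 1 it was 2.17, and without PD-L1-labelled tumor 2 it was 1.32.

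The counts behind S100a8 show how much of the separation rests on the scaling between samples. Recovered counts were 601, 1711 and 1337 in PD-L1-labelled tumors 1, 2 and 3 and 578, 188 and 610 in empty-labelled tumors 1, 2 and 3. Unscaled, empty-labelled tumor 3, the sample with the most counts in all, thus stood just above PD-L1-labelled tumor 1. Taken as a share of all endogenous counts, or scaled to the reference genes, to the sample medians or to Ptprc, the groups did not overlap.

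Fpr2, the formyl peptide and annexin receptor, stood at 7.95, 8.55 and 7.75 in PD-L1-labelled tumors 1, 2 and 3. It stood at 7.07, 6.66 and 6.42 in empty-labelled tumors 1, 2 and 3. Here the gap between the groups was the widest of the members, 0.68 between the lowest PD-L1-labelled tumor and the highest empty-labelled one. The means were 8.08 ± 0.42 and 6.72 ± 0.33 (SD, n = 3 each). They differed by 1.37 ± 0.34 (SE; 95% interval 0.55 to 2.19; adjusted p = 0.251, limma; exact permutation p = 0.1). Fpr2 had the 11th smallest p of the 541 tested genes. Its recovered counts ran from 257 to 442 in the PD-L1-labelled group and from 91 to 225 in the other, so these counts did not overlap before any scaling either.

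Anxa1, for the FPR2 ligand annexin A1, stood at 13.74, 13.47 and 13.04 in PD-L1-labelled tumors 1, 2 and 3. It stood at 12.47, 11.72 and 12.68 in empty-labelled tumors 1, 2 and 3. PD-L1-labelled tumor 3 was 0.36 above empty-labelled tumor 3, and empty-labelled tumor 2 was the lowest of all. The means were 13.42 ± 0.35 and 12.29 ± 0.50 (SD, n = 3 each). They differed by 1.12 ± 0.35 (SE; 95% interval 0.30 to 1.95; adjusted p = 0.256, limma; exact permutation p = 0.1). Recovered counts were 10071 to 18265 in the PD-L1-labelled group and 3057 to 12674 in the other, which overlapped before scaling. The receptor gene and its ligand gene did not follow the same order within the PD-L1-labelled group, where Fpr2 was highest in replicate 2 and Anxa1 in replicate 1.

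Trem1 stood at 5.29, 5.13 and 7.13 in PD-L1-labelled tumors 1, 2 and 3, and at 5.30, 5.71 and 4.52 in empty-labelled tumors 1, 2 and 3. The groups overlapped, and 1 sample, PD-L1-labelled tumor 3, stood apart from the other 5. Its recovered count was 167, with an exact 95% Poisson interval from 142.6 to 194.3 that covers counting error only. The other 5 samples had 41 to 66 counts. The means were 5.85 ± 1.11 and 5.18 ± 0.60 (SD, n = 3 each). They differed by 0.67 ± 0.63 (SE; 95% interval -0.83 to 2.17; adjusted p = 0.627, limma; exact permutation p = 0.6). Without PD-L1-labelled tumor 3 the difference was 0.03, without PD-L1-labelled tumor 2 it was 1.03, and without empty-labelled tumor 3 it was 0.34.

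The granule genes Ltf, Camp and Elane were read at the level of probes with no target. Ltf, for the iron-binding protein lactoferrin, had 12, 10 and 12 counts in PD-L1-labelled tumors 1, 2 and 3 and 3, 11 and 8 in empty-labelled tumors 1, 2 and 3. Camp, for the cathelicidin, had 9, 23 and 13 counts against 15, 11 and 33. Elane, for neutrophil elastase, had 11, 14 and 10 counts against 8, 13 and 36. The highest of the 8 negative control probes had 17 to 25 counts in these samples. In empty-labelled tumor 3 the 33 counts of Camp (exact 95% Poisson interval 22.7 to 46.3) and the 36 of Elane (25.2 to 49.8) stood above all 8 negative control probes of that sample, whose highest had 21. Their log2 values there, 4.11 and 4.24, were still under the limit of 4.66. That limit pools the negative control probes of all 6 samples, and the highest of them in empty-labelled tumor 3 stood at 3.47. In the other 5 samples no count of the 3 genes was above all 8 negative control probes. No fold is given for these genes, since both groups were under the limit, and a group difference could not be read so close to background.

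**Figure D2:**
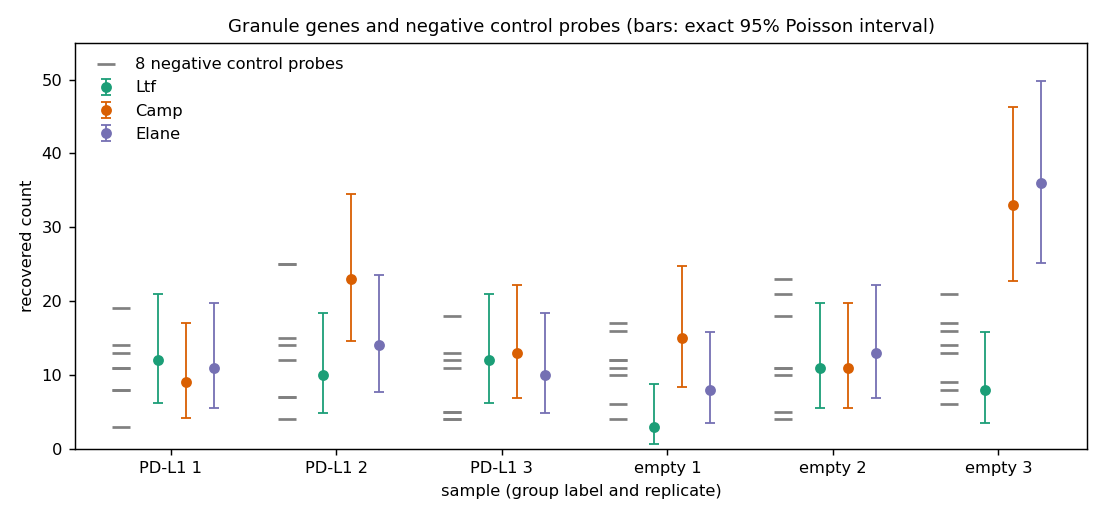
Recovered counts (y axis) of Ltf, Camp and Elane in each sample (x axis), with exact 95% Poisson intervals, beside the counts of the 8 negative control probes (grey marks). Camp and Elane stand above every negative control probe in empty-labelled tumor 3, with 33 and 36 counts, and in no other sample.

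The plot of granule gene counts sets these probes beside the negative controls of the same sample. Other genes that mark neutrophils were read from a list of 22 genes, of which 14 were measured here and 11 tested. Of these 11, 6 were higher and 5 lower in the PD-L1-labelled group, 0 passed, and the median log2 difference was 0.27. Over all 541 tested genes 217 were higher and 324 lower, with a median of -0.12. No gene of the list separated the groups with the PD-L1-labelled group higher among the 11 tested. The list's mean log2 value was 7.96 to 8.53 in the PD-L1-labelled tumors and 7.82 to 8.68 in the others, so the samples overlapped. The group means of that value were 8.22 and 8.35.

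Among genes close to neutrophil identity, Csf3r, the receptor of the growth factor G-CSF, stood at 6.20, 5.98 and 6.08 in PD-L1-labelled tumors 1, 2 and 3 and at 7.20, 5.06 and 6.95 in the others. Its difference was -0.31 ± 0.59 (SE, n = 3 per group; adjusted p = 0.818, limma). Cxcr2, the receptor of neutrophil-attracting chemokines, stood at 4.76 to 4.96 and 4.79 to 4.96, close to the limit. Csf3r and Cxcr2 are named here after their values were seen. Mpo, for the granule enzyme myeloperoxidase, Ctsg, for cathepsin G, and Cxcr1 were under the limit on average and were not tested. Ctsg stood at 3.19, 3.37 and 5.39 in PD-L1-labelled tumors 1, 2 and 3 against 2.75, 2.98 and 3.08. Its groups did not overlap, but only PD-L1-labelled tumor 3, which also had the highest Trem1, was above the limit. Ctsg had 50 counts there, where the highest negative control probe had 18. The Ctsg values are given here after they were seen. Among the neutrophil genes of lowest p were Lcn2, Il1r2 and Itgb2. Il1r2, the decoy receptor of IL-1, differed by 0.77 ± 0.56 and the integrin chain gene Itgb2 by 0.27 ± 0.27 (log2, SE, n = 3 per group). Lcn2, for a granule protein that hepatocytes also secrete in the acute phase, was lower on average, with 8.19, 6.92 and 12.89 in PD-L1-labelled tumors 1, 2 and 3 against 12.43, 12.41 and 14.17. In bulk tumor RNA, more cells of a type and more RNA per cell cannot be told apart.

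The chemoattractant receptors other than Fpr2 gave 4 measured genes, all tested, of which 3 were higher in the PD-L1-labelled group and 0 passed. C5ar1, which senses complement C5a, had 9.76 to 9.98 in the PD-L1-labelled tumors and 8.95 to 9.01 in the others. Ccr1, a receptor of CC chemokines on myeloid cells, had 9.53 to 10.86 against 8.18 to 8.80. Both separated the groups. C3ar1, the C3a receptor, and the chemerin receptor gene Cmklr1 overlapped, with differences of 0.35 ± 0.31 and -0.10 ± 0.31 (log2, SE, n = 3 per group). Of 8 genes for neutrophil-attracting chemokines, G-CSF and IL-17A, 3 were tested. Ppbp, for a platelet chemokine, stood at 5.55 to 6.75 against 4.65 to 5.17. Cxcl5 had 8.34, 8.43 and 9.20 against 9.08, 5.71 and 6.42, and Cxcl1 had 7.01, 6.44 and 6.98 against 8.29, 8.70 and 6.93. Of the 3, Ppbp and Cxcl5 were higher on average and Cxcl1 lower, and 0 passed.

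On the TREM pathway, 6 of 8 measured genes were tested, with 2 higher, 4 lower, 0 passed and a median difference of -0.23. Trem2, a lipid-sensing relative of Trem1 on macrophages, differed by 0.71 ± 0.31, Syk, the kinase below DAP12, by -0.43 ± 0.33, the cytokine gene Il1b by -0.76 ± 0.88 and the chemokine gene Ccl2 by 0.79 ± 0.61 (log2, SE, n = 3 per group). PD-L1-labelled tumor 3, which had the highest Trem1, had 9.31 for Il1b against 6.86 and 6.38 in replicates 1 and 2 of its group, but Il1b was highest in empty-labelled tumor 1, at 9.45, where Trem1 was 5.30. Empty-labelled tumor 3, with the lowest Trem1, had the third highest Il1b of the 6 samples. Of 6 genes for receptors or receptor partners of calprotectin and cathelicidin, all tested, 5 were higher, 0 passed and the median was 0.23. Tlr4, through which calprotectin signals, differed by 0.62 ± 0.33, Myd88, the adaptor of that receptor, by 0.54 ± 0.43, the scavenger receptor gene Cd36 by -0.64 ± 0.71 and the lectin gene Cd33 by 0.28 ± 0.30.

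Markers of macrophages and monocytes, which also express S100a8 and Fpr2, were measured in the same samples. Of 15 tested genes 12 were higher in the PD-L1-labelled group, against 217 of all 541 tested genes. Of the 15, 0 passed, and the median difference was 0.44. The list's mean log2 value was 10.46, 11.37 and 10.98 in PD-L1-labelled tumors 1, 2 and 3 and 10.18, 10.00 and 10.44 in the others, and none of its genes was at 0 counts. The genes of lowest p were Mrc1, the mannose receptor (2.53 ± 0.53), Lyz2, for lysozyme of macrophages and neutrophils (1.41 ± 0.48), the scavenger receptor gene Cd163 (3.68 ± 1.33) and Msr1, another scavenger receptor (1.02 ± 0.38; log2 differences, SE, n = 3 per group). Of these genes, Mrc1 and Lyz2 separated the groups, while Msr1 and Cd163 overlapped. Cd163 stood at 9.55, 11.40 and 6.70 in PD-L1-labelled tumors 1, 2 and 3 against 3.85, 5.54 and 7.20. Csf1r, the receptor that defines the lineage, differed by 0.14 ± 0.25, named after its value was seen. The 3 lower genes of the list were Emr1 (-0.06 ± 0.34), Ccr2 (-0.09 ± 0.55) and Cx3cr1 (-0.59 ± 0.58). Taken relative to this list's mean, which was tried only after seeing the values, the difference was 0.94 for S100a8, 0.64 for Fpr2 and 0.40 for Anxa1, and that of Trem1 turned to -0.06. Ptprc, the gene of the leukocyte surface protein CD45, was 9.05 ± 0.62 against 8.84 ± 0.37 (SD, n = 3 each). Relative to Ptprc, S100a8 still did not overlap between the groups and differed by 1.47, while Fpr2, at 1.16, and Anxa1, at 0.92, overlapped.

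**Figure D3:**
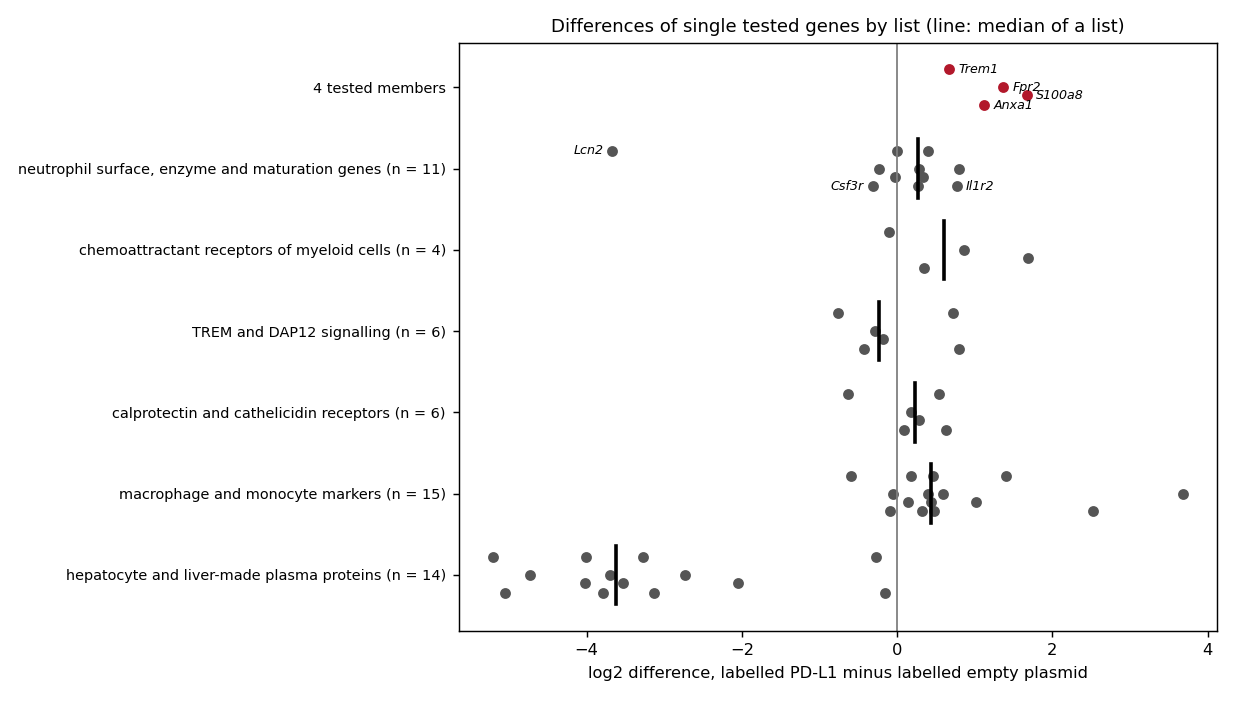
Log2 differences (x axis, PD-L1-labelled minus empty-labelled) of the 4 tested members in red and of the tested genes of 6 lists in grey, with a vertical line at each list's median. Genes of the neutrophil list lie on both sides of 0 with a median of 0.27, and 14 of 14 hepatocyte genes lie below 0.

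As the plot of differences by list shows, genes of hepatocytes were lower on average in the PD-L1-labelled group. This held for all 14 tested genes of that list, against 324 of all 541 tested genes. The groups overlapped for each of the 14, 0 passed, and the median difference was -3.62. The list's mean was 6.52, 5.58 and 9.48 in PD-L1-labelled tumors 1, 2 and 3 and 8.46, 12.31 and 10.60 in empty-labelled tumors 1, 2 and 3. The lowest p belonged to Hamp, for the iron hormone hepcidin, at -5.05 ± 1.68, the complement gene C8a at -5.21 ± 1.74, the coagulation factor gene F12 at -4.02 ± 1.35 and the complement inhibitor gene Serping1 at -2.05 ± 0.67 (log2, SE, n = 3 per group). With the list's mean as a covariate the difference was 1.44 for S100a8, 0.89 for Fpr2, 0.60 for Anxa1 and 1.73 for Trem1, with adjusted p of 0.754, 0.754, 0.816 and 0.754 (limma). Empty-labelled tumor 2, the sample with the highest hepatocyte mean, had the lowest S100a8 and Anxa1. Its Fpr2, at 6.66, was not the lowest, which was 6.42 in empty-labelled tumor 3. Its Trem1, at 5.71, was exceeded only in PD-L1-labelled tumor 3, at 7.13. A link of the members to hepatocyte content was not tested beyond the covariate fit.

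Genes of other cell types were read as well. Of 7 measured genes of eosinophils, basophils and mast cells 1 was tested, Prg2, for an eosinophil granule protein. It stood at 5.14 to 5.33 in the PD-L1-labelled tumors and at 4.39 to 4.51 in the empty-labelled tumors. Every empty-labelled value of Prg2 was under the background limit, so the gap between the groups was read partly below that limit. Of 10 T cell genes 2 were tested, Cd3d and Cd3g, chains of the T cell receptor complex, with differences of -1.05 ± 0.46 and -1.54 ± 0.78 (log2, SE, n = 3 per group). Cd3g averaged 4.51 in the PD-L1-labelled group, under the limit. Cd3d was under it in PD-L1-labelled tumor 1, at 4.40, so part of these values was read at background. Of 8 B cell genes only Cd79b, a chain of the B cell receptor complex, was tested, with a difference of -0.27 ± 0.95. Of 5 tested surface genes of epithelium and mesothelium, 3 were higher and 2 lower. Msln, for mesothelin, did not overlap between the groups, with 11.01 to 12.13 against 7.93 to 9.48, a difference of 3.02 ± 0.48 (adjusted p = 0.103, limma). Ceacam1, Cdh1 and Muc1 differed by -1.25 ± 0.92, -0.50 ± 1.09 and 0.69 ± 1.35. In each of these lists 0 genes passed. The part of any of these cell types in the differences of the members was not tested beyond the values given.

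The tested genes most like each member were found by the root mean square difference of log2 profiles over the 6 samples, after subtraction of each gene's mean. For S100a8 they were Lyz2 at 0.27, the Fc receptor gene Fcgr3 at 0.36 and Ccr1 at 0.36, where the median over all tested genes was 1.15. For Fpr2 they were the cytokine gene Tnfsf14 at 0.26, the adaptor gene Hcst at 0.28 and the surface gene Cd99 at 0.34, against a median of 0.91. For Anxa1 they were Lgals3, for galectin-3, at 0.17, the IL-4 receptor gene Il4ra at 0.24 and the collectin gene Colec12 at 0.26, against a median of 0.82. For Trem1 they were the granzyme gene Gzma at 0.37, the IL-1 receptor antagonist gene Il1rn at 0.42 and Spp1, for osteopontin, at 0.42, against a median of 0.97. Gzma shared the high value of PD-L1-labelled tumor 3, with 7.54 there and 5.17 to 5.26 in the other 5 samples. No member was among the 3 tested genes nearest to another member. Fpr2 and Anxa1 were at 0.45 from each other, S100a8 and Fpr2 at 0.53, S100a8 and Anxa1 at 0.73 and S100a8 and Trem1 at 1.02. Among tested genes, Fpr2 was the 31st nearest to Anxa1, S100a8 the 39th nearest to Fpr2 and S100a8 the 204th nearest to Anxa1. Trem1 was the 189th nearest to S100a8, the 300th to Fpr2 and the 410th to Anxa1.

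Depth did not limit S100a8, Fpr2 and Anxa1, which had at least 188, 91 and 3057 counts. The 3 granule genes were read near the negative control probes, and whether more depth would change this was not tested. The samples held 1009717 to 1894819 counts over the 770 endogenous and reference genes, against 72 to 109 over the 8 negative control probes. Cd274, which encodes PD-L1, did not stand higher in the PD-L1-labelled group, with means of 5.80 ± 0.41 and 6.56 ± 1.10 (SD, n = 3 each; exact permutation p = 0.4). The labels do not tell whether its probe reads the plasmid's transcript. Any 2 replicates of a group differed by far more than counting noise (chi-square over its degrees of freedom, 145.4 or more).

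**Figure D4:**
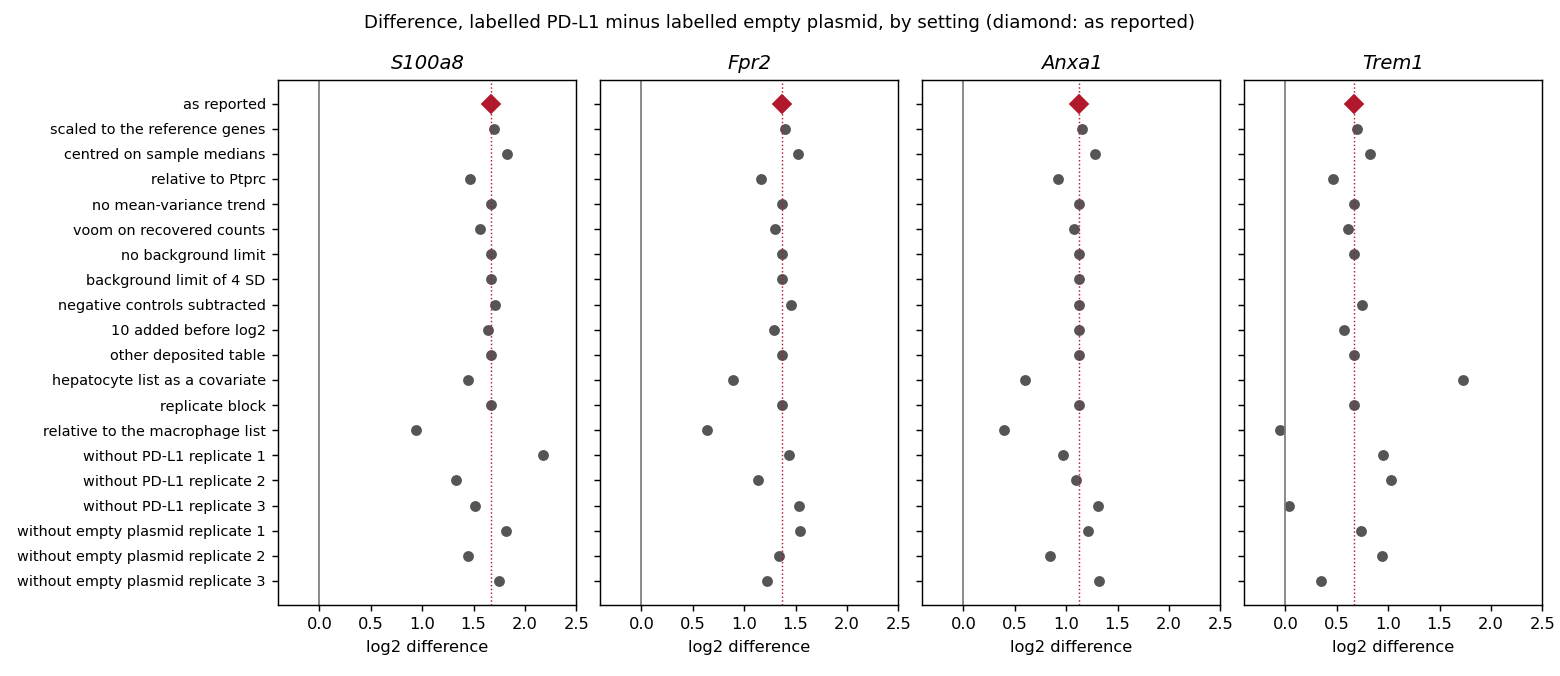
Log2 differences (x axis, PD-L1-labelled minus empty-labelled) of the 4 tested members as reported (red diamond) and under each alternative setting (grey points, y axis). S100a8, Fpr2 and Anxa1 stay above 0 in all 19 alternatives, and Trem1 is at 0.03 without PD-L1-labelled tumor 3 and at -0.06 relative to the macrophage list. Settings that alter only the trend, the background limit, the replicate block or the deposited table cannot move a difference.

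The plot of differences by setting shows that S100a8, Fpr2 and Anxa1 stayed higher under each of 19 alternatives. The differences ran from 0.94 to 2.17 for S100a8, from 0.64 to 1.54 for Fpr2 and from 0.40 to 1.32 for Anxa1. The trend, the background limits, the replicate block and the identical table cannot change a difference by construction, so those settings do not test the direction. None of the 19 alternatives took a member past an adjusted p of 0.05 in limma. The adjusted p ran from 0.15 to 0.754 for S100a8, from 0.169 to 0.754 for Fpr2 and from 0.184 to 0.816 for Anxa1.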

How the data were processed

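Total RNA of 6 mouse tumors was read by NanoString nCounter, per the labels' protocols. Samples were grouped by title. The values deposited by the authors are log2 values that carry 1 scaling factor per sample, with its basis not given in the sources used here. Within a tolerance of 0.02, 2 to the power of each value was a whole count times a factor per sample plus 0.158, and counts were recovered from this. Genes were tested when their mean was at or above the negative controls' mean plus 2 SD, 4.66, which kept 541 of 750 genes, 4 of the 7 members among them. limma 3.58.1 (R 4.3.3; lmFit, eBayes with trend, group only) gave the adjusted p-values, and two-sided exact permutation tests were run for single genes. The limma step was first tested on simulated data with known changes.

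Members and gene lists were chosen with earlier results of these data known. The named genes are the members, up to 4 tested genes of lowest p per list, and the 3 genes most like each tested member. A gene that the rule names in the neutrophil list is not reported here. Alternatives covered scaling, the trend, voom on the recovered counts, the background limit, subtraction of negative controls, a constant of 10, the other deposited table (identical values), a hepatocyte covariate, the replicate block and the omission of each sample. Scaling to the macrophage list was added after seeing the data. Accessions of all 7 members matched RefSeq's table for GRCm38.p6, from which the upstream sequences were taken. No build is named for the panel. Plots used matplotlib 3.10.9 (python 3.11.15).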

Additional observations from a re-analysis of the deposited data

How the results depend on the processing

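Of 19 alternatives, 18 gave 0 genes past the threshold, as in the reported setting. Scaling to the reference genes gave 1, which was F13a1 and no member. Leaving out each sample gave 0 genes each time, and 38 to 92 genes at an unadjusted p under 0.05, against 92 as reported. The count was 38 without PD-L1-labelled tumor 2 and 53 without empty-labelled tumor 3. It was 27 with the hepatocyte covariate and 177 relative to the macrophage list. The difference of Trem1 turned to -0.057 relative to the macrophage list, and the cause was not tested. That scaling moved the median of all tested genes to -0.85, and scaling to Ptprc moved it to -0.32, from -0.12. No member crossed the threshold in any alternative. Without one sample each, the difference ran from 1.32 to 2.17 for S100a8, 1.13 to 1.54 for Fpr2, 0.84 to 1.32 for Anxa1 and 0.03 to 1.03 for Trem1. Without the background limit, where all 750 genes were tested, Ltf, Camp and Elane had adjusted p of 0.488, 0.902 and 0.861 (limma). Trem1 was not tested under the limit of 4 SD, which its mean does not reach.

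Samples that share a replicate number did not deviate together in every pair, with correlations of 0.27, -0.20 and -0.13 across genes for numbers 1 to 3, so the numbers were not taken as pairs. A fit with the replicate block cannot change the differences, because each replicate number has a single sample in each group. They stay at 1.67 for S100a8, 1.37 for Fpr2, 1.12 for Anxa1 and 0.67 for Trem1. With the block the adjusted p were 0.292, 0.292, 0.299 and 0.719 (limma), and 0 genes were past the threshold.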
